A study of Mus musculus with 8 samples.

Results

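The posterior trunk of embryos homozygous for a knockout allele of Prtg (KO) was compared with that of heterozygous embryos (Het), and the differences across all genes were described by function and by cell lineage. The comparison used 6 of the 8 libraries of the study, 3 KO and 3 Het, chosen by the genotype in the labels. The remaining 2 libraries, wild type (WT), entered the same fit so that the genotypes shared an estimate of the spread. All embryos were C57BL/6, came from heterozygous intercrosses and were taken at embryonic day 9.5, and each was cut between somites 12 and 13, the tissue behind the cut giving the RNA. The Het embryos carry 1 knockout allele, so the comparison shows what the loss of the remaining allele goes with, not the loss of both. The sources used here do not give the deleted part of the gene. The labels name neither litters nor separate embryos, so the p-values speak only of the spread among these libraries, which may be technical in part. Het and KO each held libraries high in Xist and libraries low in it, so neither group came from 1 embryo alone. Libraries are called by their genotype and the pair of numbers in their column names, as in KO 1-3.

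Protogenin, the product of Prtg, is an immunoglobulin-type receptor of the cell surface, in the same family as the netrin receptors Dcc and neogenin. At this stage the mouse body axis is growing from neuromesodermal progenitors in the tailbud and switches from making trunk to making tail. The switch depends on GDF11, a ligand of the TGF-beta superfamily that signals through activin receptors and SMAD2 and SMAD3, and it is marked by the switching on of Hox genes of the posterior paralogue groups, by the placing of the hindlimb and cloacal mesoderm, and by the fading of trunk-stage regulators such as Nr6a1 and Lin28a.

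Total gene counts ran from 16874860 to 17511964 per library, and 16262 of 55573 genes passed the filter on low counts. Levels are CPM, counts scaled to a common library total after TMM scaling. Prtg was at 250, 240 and 282 CPM in Het and at 268, 254 and 237 CPM in KO. These groups overlapped, so whole-gene counts do not check the Het and KO labels against each other. Both WT libraries stood above them, at 317 and 386 CPM (log2 -0.45 for Het minus WT and -0.47 for KO minus WT). Neither difference from WT passed the test after adjustment (edgeR adjusted p = 0.148 for KO minus WT). Of the genes within 5 Mb of Prtg, 61 were tested and 0 were called, where 0.191% of all tested genes were called. At that share 0 of 61 does not show that the region was unchanged. In 6 of the 61 all KO libraries lay above all Het libraries, against 8.26% of all tested genes. In 9 they lay below, against 8.5%. The tissue label fitted its markers, since T and Cdx2 were at 113 CPM or more in every library while the forebrain genes Otx2 and Six3 were between 0 and 0.118 CPM. KO 1-3 stood apart. Of 9704 genes at 10 CPM or more, 90 lay over 2-fold from the mean of the other KO libraries, against 9 to 35 in the other Het and KO libraries. Its variance against KO 2-2 and KO 2-3 was 20.7 and 23.6 times that of counting, against 7.78 between these and 4.40 to 9.40 within Het. KO 1-3 was also the only KO library with Xist (1101 CPM, against 3.57 and 2.18) and the only KO library whose column name starts with 1, so these features cannot be told apart; in Het, Xist was at 815, 803 and 3.57 CPM.

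Loss of the remaining Prtg allele went with lower posterior Hox genes, lower Fst and Pmepa1 of the GDF11 and activin pathway, lower Spock2 and Mfap4 of the extracellular matrix, and higher Nr6a1, Msx1, Dact2 and Cer1. Of the genes tested, 31 differed between KO and Het (0.191%) in the quasi-likelihood test of edgeR after Benjamini-Hochberg adjustment (threshold 0.05), 10 higher in KO (0.0615%) and 21 lower (0.129%). Before adjustment 1765 genes had p below 0.05, of which 984 were higher and 781 lower. The median log2 difference over all tested genes was 0.01, with 90% of values between -0.43 and 0.57. Among the 31 called genes 14 changed by over 2-fold, 11 lower and 3 higher. The 6 libraries did not overlap in any of the 31 genes, and 2726 of all tested genes (16.8%) did not overlap either, 8.26% higher and 8.5% lower. The 31 were picked on the same values, so their non-overlap says nothing further. Without KO 1-3, 49 genes were called of 16115 (0.304%), 16 higher and 33 lower, among them 27 of the 31. Those not called without it were Hoxd13, Cacna2d2, Btg2 and Aldh1b1.

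**Figure D1:**
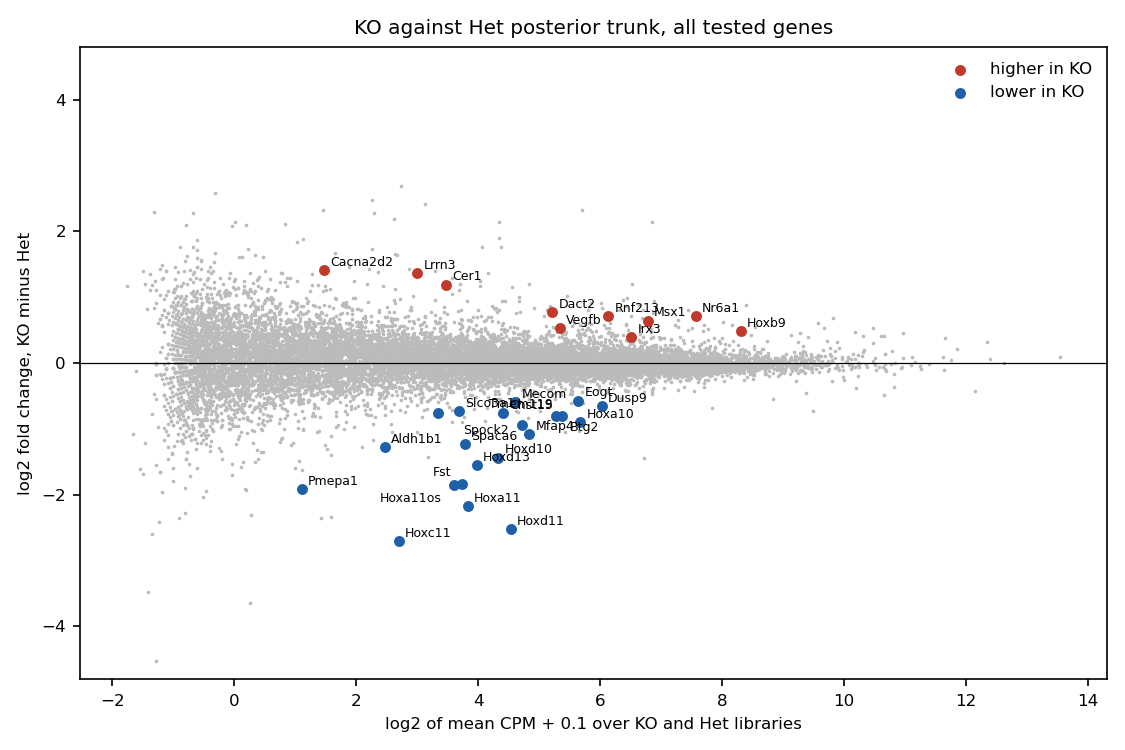
Each point is 1 of the tested genes, placed by its mean level over the KO and Het libraries (x axis, log2 of CPM + 0.1) and its log2 fold change, KO minus Het (y axis). The 21 blue genes were lower and the 10 red genes higher in KO at an adjusted p below 0.05, and among the blue genes those of Hox group 11 lie lowest.

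The calls leaned on each of the libraries to a different degree. Fst and Hoxa11 were called whichever of the 8 libraries was left out, and no other gene was called without Het 1-1 or without Het 2-4. The count was 5 without Het 2-5, 6 without KO 2-2, 38 without KO 2-3, 18 without WT 1-2 and 15 without WT 2-1. Each of the other 29 genes was lost in at least 1 of these fits. With only the KO and Het libraries in the fit, 10 genes were called, and all were among the 31 (Hoxc11, Fst, Chst15, Hoxa11, Pmepa1, Hoxd11, Tmem119 and Spock2 lower, Dact2 and Nr6a1 higher). Among the 21 lower genes KO 1-3 held the lowest KO value in 18, and among the 10 higher genes it held the highest in 8.

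**Figure D2:**
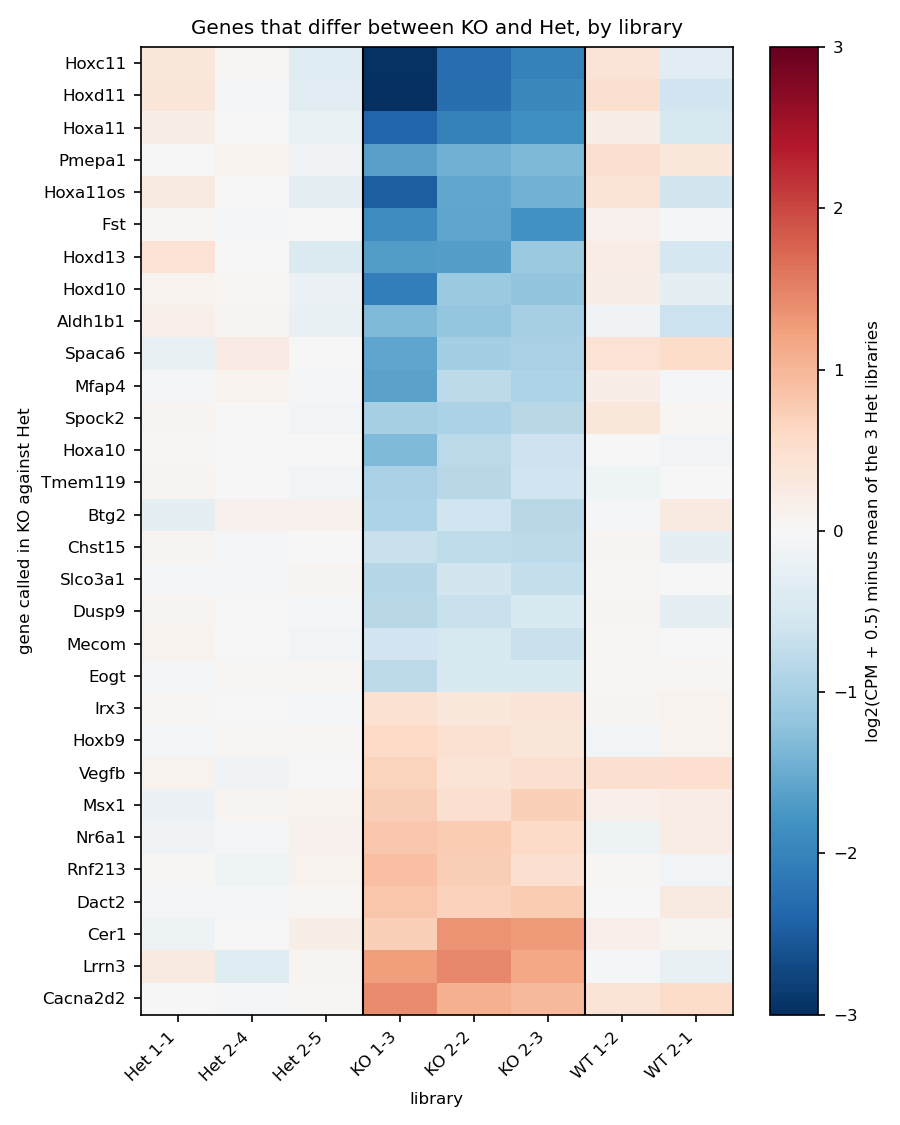
The called genes named in the text (rows) in all 8 libraries (columns), coloured by log2(CPM + 0.5) relative to the average of the 3 Het libraries. Blue marks lower and red higher levels; the 3 KO columns differ from the Het columns in every row, and the Vegfb row is red in both WT columns too.

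Hox genes made up the largest group among the lower genes. Paralogue groups 10 to 13, which pattern the sacrum and tail, have 12 genes on the list. Of these 10 were tested, all 10 lay below 0, and 6 fell (Hoxa10, Hoxa11, Hoxc11, Hoxd10, Hoxd11 and Hoxd13). Their median log2 difference was -1.49, against 0.01 over all genes, and 9 of 10 did not overlap on the lower side, against 8.5% of all genes. In groups 5 to 9, which pattern the trunk, 15 genes were tested. Of these 1 rose (Hoxb9) and 0 fell, with a median of -0.01. On the higher side 5 did not overlap (33.3%, against 8.26% of all genes) and on the lower side 2 (13.3%, against 8.5%). In groups 1 to 4, which pattern the hindbrain and neck, 12 were tested. Of these 0 were called, 10 lay above 0 and the median was 0.17. Here 5 did not overlap on the higher side (41.7%) and 1 on the lower (8.33%). In bulk tissue, fewer cells that express a gene and less RNA per cell cannot be told apart.

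Hoxa11 was at 26.4, 23.0 and 19.8 CPM in Het and at 4.01, 5.27 and 6.03 CPM in KO. The groups lay far apart, and the fall was 4.52-fold (log2 -2.18 ± 0.21 SE, edgeR adjusted p = 0.00385). Hoxc11 was at 13.8, 11.0 and 8.34 CPM in Het and at 0.943, 1.81 and 2.30 CPM in KO, a 6.52-fold fall (-2.71 ± 0.31, edgeR adjusted p = 0.00991). Hoxd11, which acts with Hoxa11 in the forearm and kidney, was at 49.9, 37.4 and 30.4 CPM in Het and at 3.06, 7.61 and 9.70 CPM in KO (-2.53 ± 0.37, edgeR adjusted p = 0.0334). The 3 group 11 genes thus had the largest called falls. In each of them KO 1-3 was the lowest and Het 1-1 the highest of the Het and KO libraries. WT stood at 26.0 and 16.2 CPM for Hoxa11, 14.2 and 8.65 CPM for Hoxc11, and 53.7 and 25.6 CPM for Hoxd11. All these WT values lay above KO, but in Hoxa11 and Hoxd11 the lower WT library lay below every Het library.

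The called genes of groups 10 and 13 moved less than those of group 11. Hoxa10 was at 67.4, 65.3 and 66.3 CPM in Het, a spread of 1.06 CPM (SD), and at 26.2, 37.8 and 42.8 CPM in KO (-0.90 ± 0.14, edgeR adjusted p = 0.0383). Hoxd10 was at 31.3, 30.5 and 25.6 CPM in Het and at 6.54, 13.2 and 12.5 CPM in KO (-1.44 ± 0.23, edgeR adjusted p = 0.0407). Hoxd13, the last gene of the HoxD cluster, was at 30.7, 22.6 and 16.7 CPM in Het and at 6.77, 6.91 and 10.2 CPM in KO (-1.55 ± 0.26, edgeR adjusted p = 0.0487). In all 3 genes the groups were clear of each other, by a wide gap for Hoxa10 and a narrower one for Hoxd13.

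The 4 tested posterior genes that were not called were looked at after their values were seen. Hoxc10 was at 156, 154 and 152 CPM in Het and at 25.7, 67.1 and 77.5 CPM in KO (-1.44 ± 0.28, edgeR adjusted p = 0.0914). KO 1-3 lay far below the other KO libraries, and without it Hoxc10 had the smallest adjusted p of all genes (-1.09 ± 0.07, edgeR adjusted p = 1.06e-04). Hoxa13 was at 6.56 to 9.03 CPM in Het and at 2.89 to 4.82 CPM in KO (-0.93 ± 0.23, edgeR adjusted p = 0.194). Hoxd12 did not exceed 2.73 CPM in Het or 0.344 CPM in KO, and Hoxc13 did not exceed 0.805 CPM in any library.

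Hoxb9 went the other way. It was at 254, 268 and 269 CPM in Het and at 402, 362 and 342 CPM in KO, a 1.40-fold rise (0.48 ± 0.07, edgeR adjusted p = 0.0407). Per length it was also the most abundant of the called Hox genes, at 103 FPKM in Het and 143 FPKM in KO, against 10.1 and 2.23 FPKM for Hoxa11. Its neighbours Hoxb8 (0.39 ± 0.09, edgeR adjusted p = 0.161), Hoxb7 (0.40 ± 0.08, 0.0843) and Hoxb6 (0.26 ± 0.09, 0.334) did not pass the test. In these neighbours, which the rule for named genes did not pick, all KO libraries lay above all Het libraries. The same held for 8.26% of all tested genes. Hoxc4 was the group 1 to 4 gene with the smallest p, at 65.5, 65.6 and 76.4 CPM in Het and at 134, 94.4 and 81.0 CPM in KO (0.58 ± 0.16, edgeR adjusted p = 0.258).

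**Figure D3:**
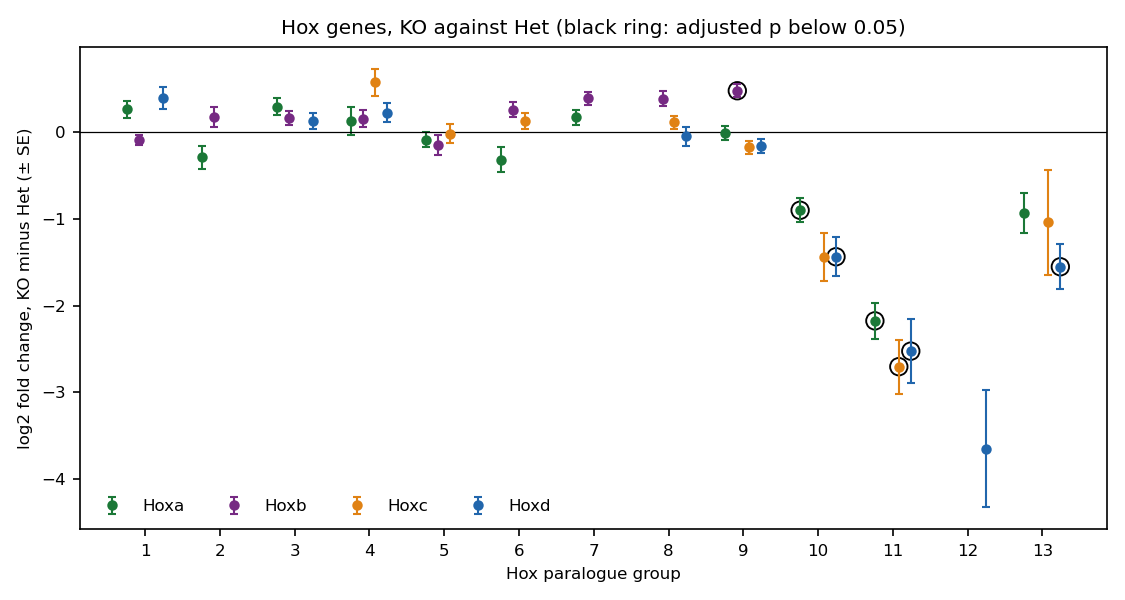
Log2 fold change, KO minus Het, of each tested Hox gene (y axis, bars show ± SE) by paralogue group (x axis) and cluster (colour); black rings mark an adjusted p below 0.05. Groups 1 to 9 lie between -0.31 and 0.58, with Hoxb9 ringed above 0. All tested genes of groups 10 to 13 lie below 0, lowest in groups 11 and 12.

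Of the noncoding transcripts and Evx genes beside the clusters, 11 of 14 were tested and 1 was called. Hoxa11os, transcribed from the strand opposite Hoxa11, was at 22.7, 18.8 and 15.5 CPM in Het and at 2.95, 6.09 and 6.66 CPM in KO (-1.86 ± 0.31, edgeR adjusted p = 0.0487). The library kit does not mark strand, so reads of Hoxa11os and Hoxa11 cannot be told apart where the 2 genes overlap. Hotair, a noncoding RNA of the HoxC cluster between Hoxc11 and Hoxc12, was at 0.234 to 0.891 CPM in Het and at 0, 0 and 0.0574 CPM in KO, and was not called (edgeR adjusted p = 0.139).

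The 250 bases before the start of 2 neighbouring Hox genes that fell together are shown because SMAD proteins bind the motif CAGAC, which stands in capitals on either strand. The windows are from RefSeq on GRCm38.p6 and lie at chr6:52240855-52241104 (Hoxa10) and chr6:52245811-52246060 (Hoxa11), both on the minus strand.
Hoxa10: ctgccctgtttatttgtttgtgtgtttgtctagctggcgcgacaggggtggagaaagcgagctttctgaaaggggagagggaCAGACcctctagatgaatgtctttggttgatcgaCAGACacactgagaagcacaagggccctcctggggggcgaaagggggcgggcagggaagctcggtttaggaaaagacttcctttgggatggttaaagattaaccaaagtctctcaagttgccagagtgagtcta
Hoxa11: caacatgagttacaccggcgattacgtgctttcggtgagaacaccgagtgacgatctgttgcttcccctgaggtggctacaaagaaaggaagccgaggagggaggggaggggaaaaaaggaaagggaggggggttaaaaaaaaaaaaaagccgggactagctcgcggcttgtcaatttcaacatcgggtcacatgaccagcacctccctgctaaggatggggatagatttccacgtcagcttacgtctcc
The Hoxa10 window holds the motif at -168 and -134 from the start, and the Hoxa11 window, of the gene that fell further, holds none. Of the 31 called genes 20 matched a RefSeq promoter window, taken as the one nearest to the deposited gene start. For all genes the first listed window was taken instead. Some windows lay far from the deposited start, by 38249 bases for Mecom, 3817 for Spaca6, 3001 for Rnf213 and 1227 for Nr6a1. Those of Mecom and Rnf213 are counted below as holding CAGAC. In 16 of the 20 genes a listed window was followed by transcript sequence of the gene. CAGAC stood in 5 of 12 windows of genes that fell (41.7%) and in 3 of 8 of genes that rose (37.5%), against 42.1% of 27025 windows of the same length. The palindrome GTCTAGAC stood in 0 of the 20 and in 0.174% of all windows. The shares in the called genes were thus near that of all windows.

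Among genes of GDF11, activin and Nodal signalling, an antagonist and a feedback gene fell and an antagonist of Nodal and BMP ligands rose. Gdf11 and the receptors were not called. Of 19 tested ligands, proteases and antagonists, 1 fell (Fst) and 1 rose (Cer1), with a median of 0.04. Of 11 tested receptors and SMAD genes 0 were called, with a median of 0.00. Among these, 4 did not overlap on the lower side (36.4%, against 8.5% of all genes) and 1 on the higher (9.09%, against 8.26%). Their summed level was 986 to 1050 CPM in KO and 1078 to 1086 CPM in Het. Of 19 tested feedback genes and targets of SMAD2 and SMAD3, 1 fell (Pmepa1), 14 lay below 0, 6 did not overlap on the lower side (31.6%, against 8.5% of all genes), and the median was -0.18.

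Fst encodes follistatin, a secreted protein that binds and blocks activins and GDF11. It was at 21.4, 20.1 and 20.2 CPM in Het and at 5.24, 6.496 and 5.45 CPM in KO. Both groups were tight, and the 3.59-fold fall (-1.84 ± 0.12, edgeR adjusted p = 1.93e-04) had the smallest p of all genes. Without KO 1-3 the difference was -1.78 ± 0.13 (edgeR adjusted p = 1.19e-04). Cer1, a secreted antagonist of Nodal and BMP ligands, was at 5.94, 6.62 and 7.54 CPM in Het and at 11.3, 17.8 and 16.8 CPM in KO, a 2.28-fold rise (1.19 ± 0.18, edgeR adjusted p = 0.0383). Here KO 1-3 was the library nearest to Het, and without it the rise was 1.37 ± 0.13. Its promoter window holds 1 CAGAC motif, at -213.

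Pmepa1, a membrane protein induced by TGF-beta that holds back the activation of SMAD2 and SMAD3, was at 3.21, 3.52 and 2.99 CPM in Het and at 0.707, 0.878 and 0.976 CPM in KO. The fall was 3.77-fold (-1.91 ± 0.23, edgeR adjusted p = 0.0134), and the WT libraries, at 4.73 and 4.15 CPM, lay above Het. Skil, which encodes the SMAD corepressor SnoN, was at 50.9, 55.1 and 51.4 CPM in Het and at 41.2, 38.8 and 35.9 CPM in KO. It did not pass the test with all libraries (-0.44 ± 0.08, edgeR adjusted p = 0.0711) and passed it without KO 1-3 (-0.49 ± 0.08, edgeR adjusted p = 0.0356). Smad7, an inhibitory SMAD, was at 20.4, 20.6 and 23.5 CPM in Het and at 22.2, 16.6 and 19.6 CPM in KO, which overlap (-0.14 ± 0.12).

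The ligand itself did not pass the test. Gdf11 was at 77.8, 89.0 and 88.8 CPM in Het and at 70.8, 100 and 101 CPM in KO (0.09 ± 0.12, 95% interval -0.17 to 0.35, edgeR adjusted p = 0.800), with KO 1-3 below and the other KO libraries above the Het range. Acvr2a, a type II receptor for activins and GDF11, had the smallest p of the receptors, at 36.5, 36.5 and 34.8 CPM in Het and at 27.7, 30.3 and 29.0 CPM in KO (-0.31 ± 0.08, edgeR adjusted p = 0.227).

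Of 13 tested regulators of trunk-stage timing, 1 rose (Nr6a1), 10 lay above 0, 5 did not overlap on the higher side (38.5%, against 8.26% of all genes) and 2 on the lower (15.4%, against 8.5%), and the median was 0.16. Nr6a1, an orphan nuclear receptor needed for the normal number of trunk vertebrae in mouse, was at 134, 140 and 156 CPM in Het and at 250, 242 and 214 CPM in KO. The lowest KO library lay above the highest Het library, and the rise was 1.64-fold (0.72 ± 0.10, edgeR adjusted p = 0.0261). Lin28a, an RNA-binding protein that blocks let-7 processing, was at 686, 738 and 820 CPM in Het and at 878, 835 and 859 CPM in KO (0.20 ± 0.09, edgeR adjusted p = 0.449). Its paralogue Lin28b, at 159, 147 and 164 CPM in Het and at 164, 167 and 159 CPM in KO, overlapped (0.06 ± 0.06).

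Spaca6, which encodes a sperm membrane protein, was at 16.2, 22.4 and 18.8 CPM in Het and at 6.01, 9.01 and 9.36 CPM in KO. The fall was 2.35-fold (-1.23 ± 0.18, edgeR adjusted p = 0.0326), and WT stood at 25.9 and 27.9 CPM, above Het. The gene (chromosome 17, 17827158 to 17843009, plus strand) hosts 3 miRNAs, shown because let-7e shares the seed of the let-7 family, on which Lin28a acts. The seed, bases 2 to 8, stands in capitals, and the sequences are from RefSeq on GRCm38.p6 at chr17:17830194-17830215, chr17:17830366-17830387 and chr17:17830817-17830840, all on the plus strand.
miR-99b-5p: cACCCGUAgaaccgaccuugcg
let-7e-5p: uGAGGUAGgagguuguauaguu
miR-125a-5p: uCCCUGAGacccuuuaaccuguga
The 3 seeds differ from each other. Mature miRNAs carry no poly(A) tail and were not measured, so the Spaca6 value is that of its long transcript alone.

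Genes of neuromesodermal progenitors and the tailbud lay mostly a little above Het, and none was called. Of 18 tested, 16 lay above 0, 8 did not overlap on the higher side (44.4%, against 8.26% of all genes) and 0 on the lower, and the median was 0.25. Sp5, a WNT target of the tailbud, had the smallest p, at 18.1, 17.1 and 15.2 CPM in Het and at 23.3, 22.2 and 29.4 CPM in KO (0.57 ± 0.14, edgeR adjusted p = 0.186). The WT libraries, at 25.3 and 19.999 CPM, lay above the Het range. Over the list, the median against Het was 0.14 to 0.24 in the KO libraries and -0.11 and 0.25 in WT, so the higher WT library lay above all KO libraries, and the summed levels of Het (1201 to 1427 CPM) and KO (1369.9 to 1643 CPM) overlapped. Cdx2, a homeobox gene that drives axis elongation, overlapped, at 113, 137 and 159 CPM in Het and at 223, 149 and 169 CPM in KO (0.40 ± 0.17, edgeR adjusted p = 0.435). T, which encodes brachyury, overlapped too, at 114, 132 and 140 CPM in Het and at 119, 116 and 125 CPM in KO (-0.10 ± 0.10). Without KO 1-3 the list's median was 0.20, with 9 of 18 not overlapping on the higher side, against 12.3% of all genes. Fgf4, a growth factor of the tailbud, was at 5.24 CPM in KO 1-3 and at 1.58 and 1.38 CPM in the others, against 0.460 to 0.772 CPM in Het (2.11 with all libraries and 1.23 without KO 1-3), and was not called in either fit.

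Among the other signalling pathways, single genes of the BMP and WNT lists rose. Of 27 tested BMP genes 1 rose and 0 fell, with a median of 0.06. Of 36 tested WNT genes 1 rose and 0 fell, also with a median of 0.06. In the BMP list 8 did not overlap on the higher side (29.6%) and 5 on the lower (18.5%). In the WNT list 9 did not overlap on the higher side (25%) and 7 on the lower (19.4%). Over all genes the shares were 8.26% and 8.5%. Msx1, a homeobox gene induced by BMP in limb, roof plate and lateral mesoderm, was at 75.1, 90.0 and 91.8 CPM in Het and at 142, 120 and 140 CPM in KO. The rise was 1.56-fold (0.65 ± 0.09, edgeR adjusted p = 0.0261), and the lowest KO library was clear of the highest Het library. Dact2, which modulates WNT signalling and in zebrafish promotes the breakdown of Nodal receptors, was at 26.6, 26.8 and 28.7 CPM in Het and at 48.9, 44.6 and 46.9 CPM in KO (0.77 ± 0.09, edgeR adjusted p = 0.0093). It was the most significant of the genes that rose. The FGF (24 tested), retinoic acid (18), Notch (20) and Hedgehog (16) lists held 0 called genes, with medians of 0.09, -0.07, -0.04 and 0.02. In the same order, 20.8%, 22.2%, 5% and 18.8% of their genes did not overlap on the higher side. On the lower side the shares were 4.17%, 5.56%, 20% and 6.25%. Dusp9, an X-linked phosphatase that switches off ERK, fell from 83.5, 78.8 and 75.6 CPM in Het to 44.6, 49.7 and 57.3 CPM in KO (-0.65 ± 0.11, edgeR adjusted p = 0.0435). With Y-linked expression as a covariate its edgeR adjusted p was 0.0618.

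**Figure D4:**
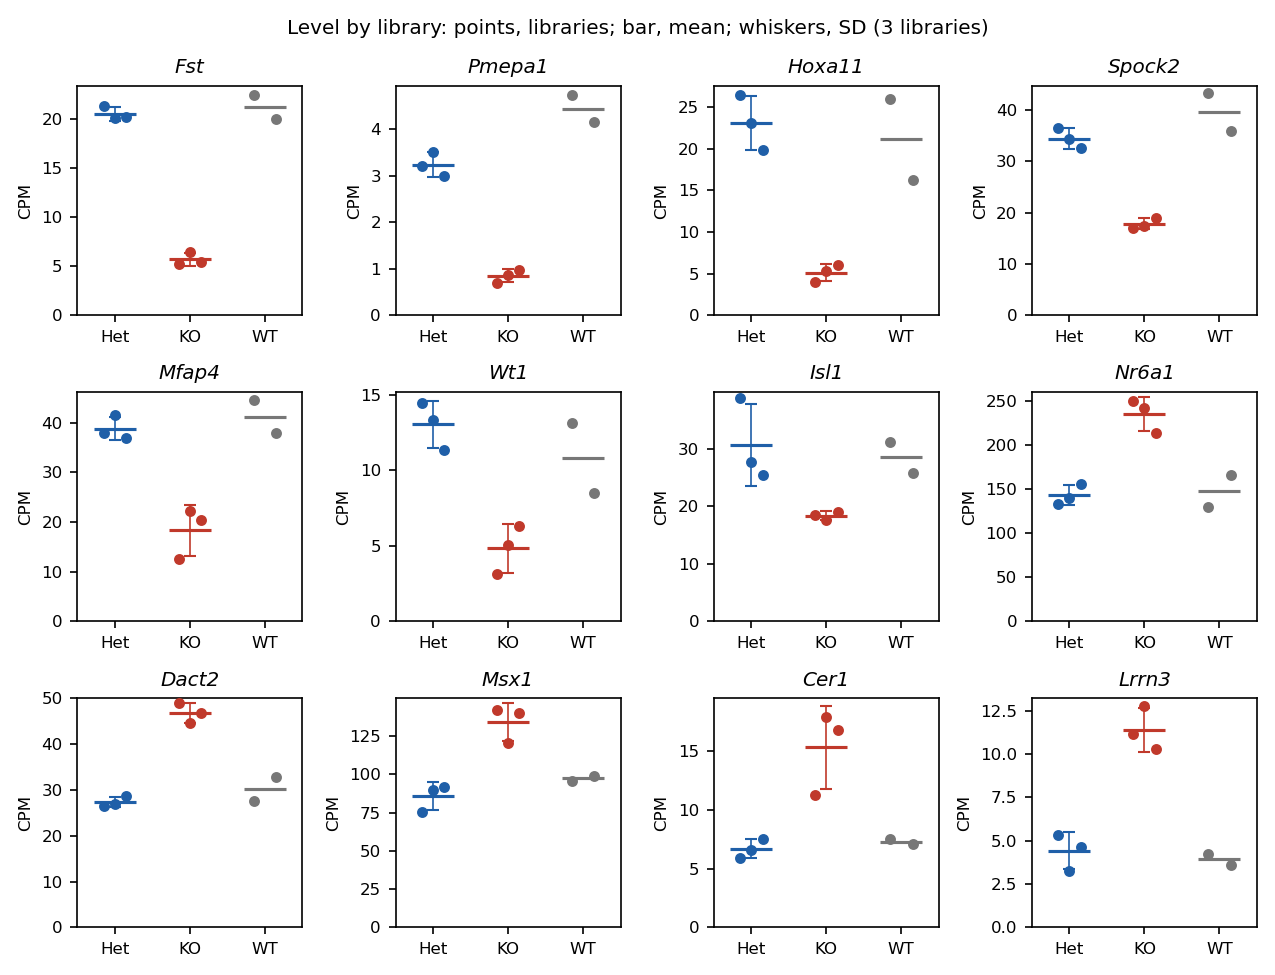
Level in CPM (y axis, from 0) of 12 of the named genes in each Het, KO and WT library (points), with group means (bars) and the SD of groups with 3 libraries (whiskers). Het and KO points do not overlap in any panel; Wt1 and Isl1 did not pass the test with all libraries.

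Lateral plate and hindlimb genes lay on both sides of 0. Of 20 tested, 1 was called (Msx1, higher), 6 did not overlap on each side (30%, against 8.26% of all genes on the higher side and 8.5% on the lower) and the median was 0.05. Isl1, which starts the hindlimb field in the posterior lateral plate and also marks motor neurons, was at 38.8, 27.7 and 25.4 CPM in Het and at 18.5, 17.6 and 19.1 CPM in KO (-0.74 ± 0.15, edgeR adjusted p = 0.117). Its hindlimb companions Tbx4 and Pitx1, chosen after their values were seen, were on the same side. Tbx4, needed for hindlimb outgrowth, was at 45.6, 31.8 and 28.1 CPM in Het and at 18.3, 17.8 and 18.5 CPM in KO (-0.95 ± 0.17, edgeR adjusted p = 0.0625). Pitx1 was at 142, 129 and 129 CPM in Het and at 85.8, 95.6 and 108 CPM in KO (-0.47 ± 0.08, edgeR adjusted p = 0.0526) and was called without KO 1-3 (-0.39 ± 0.07, edgeR adjusted p = 0.0356). With the first number of the column name as a term, Isl1 passed the threshold (edgeR adjusted p = 0.0417). On the other side stood Hand1, at 62.8, 66.2 and 57.0 CPM in Het and at 77.7, 81.2 and 87.6 CPM in KO (0.41 ± 0.08, edgeR adjusted p = 0.117), a gene of extraembryonic and lateral mesoderm.

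Of 16 tested genes of intermediate mesoderm and early kidney 0 were called, with a median of 0.04. Wt1, needed for kidney and gonad, lay just short of the threshold, at 14.4, 13.3 and 11.3 CPM in Het and at 3.12, 5.03 and 6.31 CPM in KO (-1.43 ± 0.24, edgeR adjusted p = 0.05). It was called without KO 1-3 (-1.20 ± 0.20, edgeR adjusted p = 0.0356). Mecom, a zinc finger transcription factor found in the nephric duct among other tissues, fell from 31.4, 28.8 and 27.3 CPM in Het to 19.3, 20.6 and 18.1 CPM in KO (-0.59 ± 0.09, edgeR adjusted p = 0.0415). Both genes had all KO libraries below all Het libraries, but both were picked by their p. Of the 16 listed genes, 2 did not overlap on the lower side (12.5%, against 8.5% of all genes). On the higher side 2 did not overlap (12.5%, against 8.26%).

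Single genes of the extracellular matrix fell. Of 40 tested matrix genes other than collagens, 2 fell (Spock2 and Mfap4) and 0 rose, 28 lay below 0, 9 did not overlap on the lower side (22.5%, against 8.5% of all genes) and 5 on the higher (12.5%, against 8.26%), and the median was -0.12; of 21 collagens 0 were called, with a median of -0.09. Spock2, a proteoglycan of the testican family, was at 36.5, 34.4 and 32.6 CPM in Het and at 17.02, 17.5 and 19.1 CPM in KO (-0.95 ± 0.10, edgeR adjusted p = 0.0062). Mfap4, a glycoprotein of elastic microfibrils, was at 38.0, 41.4 and 36.9 CPM in Het and at 12.5, 22.1 and 20.3 CPM in KO (-1.08 ± 0.17, edgeR adjusted p = 0.0407). Spock2 was as low in KO 1-3 as in the other KO libraries, while Mfap4 was lower there.

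Chst15, a sulfotransferase of chondroitin sulfate chains, was at 27.9, 25.4 and 26.1 CPM in Het and at 16.3, 15.5 and 15.2 CPM in KO (-0.76 ± 0.11, edgeR adjusted p = 0.0349). Eogt, which adds O-GlcNAc to EGF repeats of secreted and membrane proteins, was at 56.6, 60.7 and 61.0 CPM in Het and at 34.3, 43.0 and 42.9 CPM in KO (-0.57 ± 0.09, edgeR adjusted p = 0.0407). Both are enzymes that modify matrix or surface proteins, and their KO libraries lay well below Het. Tmem119, a membrane protein known from osteoblasts and microglia, was at 52.0, 48.6 and 46.2 CPM in Het and at 24.5, 27.2 and 32.0 CPM in KO (-0.81 ± 0.10, edgeR adjusted p = 0.0138). The transporter gene Slco3a1 fell from 15.4, 15.2 and 16.9 CPM to 8.60, 10.6 and 9.53 CPM (-0.73 ± 0.12, edgeR adjusted p = 0.0435). In both of these genes KO 1-3 was close to the other KO libraries.

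A pair of membrane genes rose from low levels. Lrrn3, a leucine-rich repeat protein of neurons, was at 5.35, 3.28 and 4.66 CPM in Het and at 11.1, 12.8 and 10.3 CPM in KO, a 2.57-fold rise (1.36 ± 0.19, edgeR adjusted p = 0.0261). It was the 1 called gene among 20 tested leucine-rich repeat membrane genes, whose median was 0.12. Cacna2d2, an auxiliary subunit of voltage-gated calcium channels, was at 1.49, 1.41 and 1.496 CPM in Het and at 4.77, 3.63 and 3.33 CPM in KO (1.41 ± 0.23, edgeR adjusted p = 0.0431). It was the 1 called gene of 14 tested calcium channel subunit genes, whose median was -0.12. Its WT libraries were at 2.10 and 2.40 CPM, between Het and KO (Het minus WT -0.62), and it was not called without KO 1-3.

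Neural genes held 1 call. Of 21 tested neural tube progenitor genes 1 rose (Irx3) and the median was -0.02. Of 17 tested genes of differentiating neurons 0 were called, and the median was -0.12. Among these, 5 did not overlap on the lower side (29.4%, against 8.5% of all genes) and 3 on the higher (17.6%, against 8.26%). Irx3, a homeobox gene of the neural tube and the limb bud, was at 80.6, 78.8 and 76.9 CPM in Het and at 109, 98.9 and 103 CPM in KO (0.39 ± 0.06, edgeR adjusted p = 0.033). The change was the smallest among the 31 and came with a spread of 1.89 CPM (SD) in Het and 5.13 CPM in KO.

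The remaining called genes fell into no common list. Btg2, an antiproliferative gene induced by p53 and by growth stimuli, was at 43.1, 56.9 and 57.1 CPM in Het and at 26.9, 34.1 and 28.9 CPM in KO (-0.81 ± 0.13, edgeR adjusted p = 0.0445). It was the 1 call among 19 tested p53 targets (median 0.11) and 20 immediate early genes (median -0.18), and no fit that left out 1 library called it. Aldh1b1, a mitochondrial aldehyde dehydrogenase, was at 8.62, 8.09 and 6.44 CPM in Het and at 2.77, 3.16 and 3.62 CPM in KO (-1.27 ± 0.21, edgeR adjusted p = 0.0431). WT stood at 7.07 and 4.68 CPM, so the lower WT library was nearer to KO than any Het library was. Rnf213, a large ubiquitin ligase induced by interferon, was at 54.1, 48.05 and 56.6 CPM in Het and at 99.7, 88.2 and 73.5 CPM in KO (0.72 ± 0.11, edgeR adjusted p = 0.0349), and was the 1 call among 12 tested interferon response genes (median 0.24).

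Vegfb, a vascular growth factor, was at 35.5, 31.0 and 33.1 CPM in Het and at 52.8, 43.9 and 46.5 CPM in KO (0.53 ± 0.09, edgeR adjusted p = 0.0449). Its WT libraries were at 46.1 and 47.2 CPM, inside the KO range, and its KO minus WT value was 0.03 (edgeR adjusted p = 0.96). Vegfb was thus set apart by its low Het level. Over all genes Het and WT differed in 0 by edgeR's quasi-likelihood test after adjustment, against 292 at an unadjusted p below 0.05 and 1 by DESeq2, and the 2 comparisons share the Het libraries.

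Several lists without a called gene lay to one side as a whole, and KO 1-3 moved with them. All 23 tested genes of hypoxia response and glycolysis lay above 0, with a median of 0.53, and 16 did not overlap on the higher side (69.6%, against 8.26% of all genes). By library the list's median against Het was 1.00 in KO 1-3 and 0.18 and 0.22 in KO 2-2 and KO 2-3, and the Het libraries ran from -0.02 to 0.04. Without KO 1-3 the median was 0.20, 18 lay above 0, 16 did not overlap on the higher side (12.3% of all genes did) and 1 was called, the glucose transporter gene Slc2a1. It was at 611, 579 and 614 CPM in Het and at 1259, 743 and 738 CPM in KO, with 618 and 614 CPM in WT (0.60 ± 0.17 and edgeR adjusted p = 0.261 with all libraries; 0.30 ± 0.05 and edgeR adjusted p = 0.0291 without KO 1-3). Aldoc, a glycolytic aldolase, had the smallest p of the list, at 7.90, 8.14 and 9.55 CPM in Het and at 64.1, 17.5 and 13.5 CPM in KO (1.89 ± 0.49, edgeR adjusted p = 0.235).

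All 20 cholesterol synthesis genes lay above 0 too, with a median of 0.60, and 5 did not overlap on the higher side (25%, against 8.26% of all genes). The list's median against Het was 1.20 in KO 1-3, 0.43 in KO 2-2 and 0.09 in KO 2-3, the last inside the Het range of -0.12 to 0.16, and WT stood at 0.18 and 0.36. Without KO 1-3 the median was 0.26. Among 11 tested mitochondrially encoded genes 0 were called, and their median against Het was -0.81 in KO 1-3 and 0.00 and -0.16 in the other KO libraries. The part of KO 1-3's condition in any result was not tested beyond the values without it.

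**Figure D5:**
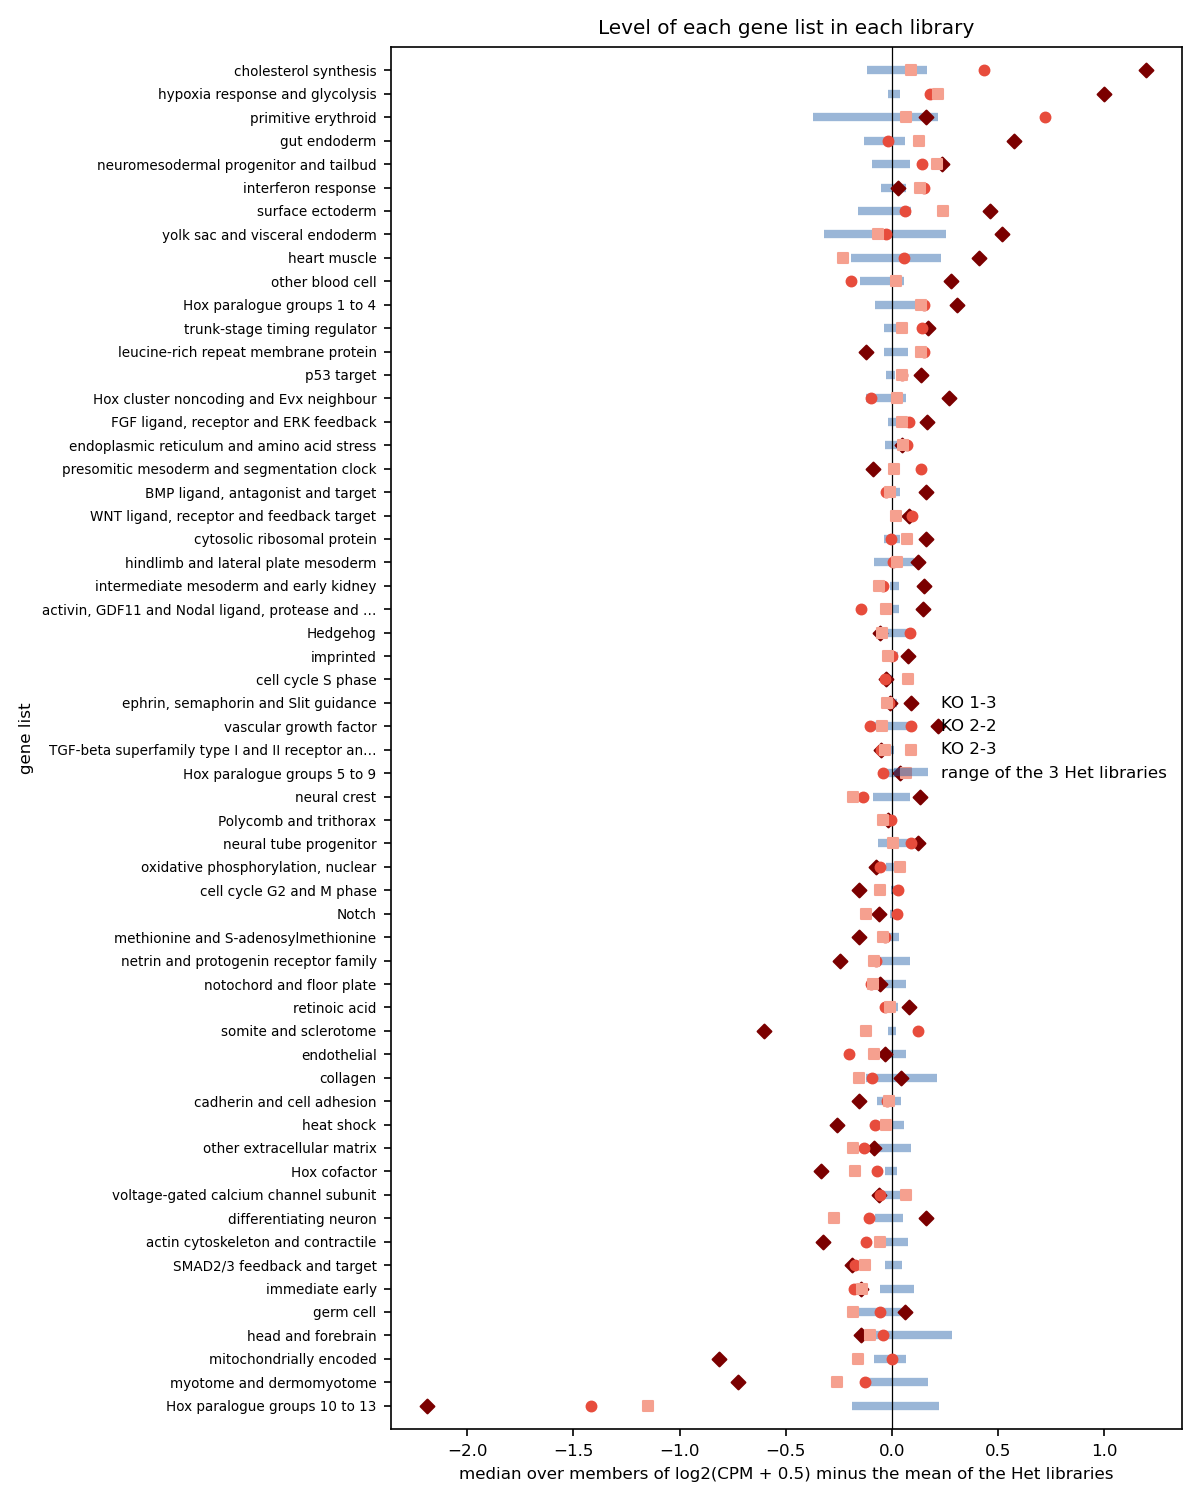
Median over the tested members of each gene list (rows, ordered by the median log2 fold change) of log2(CPM + 0.5) relative to the Het average (x axis), for each KO library (points) and the range of the 3 Het libraries (blue bars). KO 1-3 (diamonds) lies far from the other KO libraries in cholesterol synthesis, hypoxia response, gut endoderm, somite and mitochondrially encoded genes, and all 3 KO libraries lie far below Het in Hox paralogue groups 10 to 13.

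Some cell lineage lists showed the same division and others did not. The 9 tested genes of myotome and dermomyotome all lay below 0 (median -0.35), led by Des, the muscle intermediate filament gene, at 37.6, 32.3 and 30.5 CPM in Het and at 19.6, 26.0 and 23.5 CPM in KO (-0.54 ± 0.12, edgeR adjusted p = 0.149); the list's median against Het was -0.72 in KO 1-3, -0.13 in KO 2-2, inside the Het range, and -0.26 in KO 2-3. Without KO 1-3 its median was -0.21 and 3 of the 9 lay above 0. The 15 somite and sclerotome genes stood at -0.60 in KO 1-3 and at 0.12 and -0.12 in the others, and the 14 gut endoderm genes at 0.57, -0.02 and 0.13. Of 15 surface ectoderm genes 14 lay above 0 (median 0.23), led by Krt18, a keratin of simple epithelia. Krt18 was at 124, 125 and 129 CPM in Het and at 182, 150 and 152 CPM in KO (0.35 ± 0.08, edgeR adjusted p = 0.161). The list's median against Het was 0.46 in KO 1-3, 0.06 in KO 2-2, inside the Het range, and 0.24 in KO 2-3. On the higher side 4 did not overlap (26.7%, against 8.26% of all genes) and on the lower 0. Without KO 1-3 its median was 0.17 and 12 of the 15 lay above 0. The 15 primitive erythroid genes all lay above 0 (median 0.40), yet their summed level overlapped, at 2952 to 4789.7 CPM in Het and 4206 to 6705 CPM in KO. The WT libraries were at 6079.5 and 3017 CPM. Here KO 2-2 stood apart, with a list median against Het of 0.72, against 0.16 in KO 1-3 and 0.06 in KO 2-3. Without KO 1-3 the erythroid median was 0.47. Notch4, a Notch receptor of endothelium, was at 36.8, 36.9 and 37.7 CPM in Het and at 28.1, 24.2 and 27.9 CPM in KO (-0.48 ± 0.08, edgeR adjusted p = 0.0518), and was called without KO 1-3 (-0.51 ± 0.09, edgeR adjusted p = 0.0356). None of these lists held a gene called with all libraries.

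Lists with a median near that of all genes were those of the cell cycle (medians 0.01 for S phase and -0.04 for G2 and M phase), cytosolic ribosomal proteins (0.06), nuclear genes of oxidative phosphorylation (-0.02), Polycomb and trithorax genes (-0.02), imprinted genes (0.02), and axon guidance genes (0.00), each with 0 called genes. Hox cofactors and the netrin receptor family to which Prtg belongs also held 0 called genes. Of 9 tested Hox cofactors 8 lay below 0 (median -0.12) and 3 did not overlap on the lower side (33.3%, against 8.5% of all genes). Of 18 tested genes of the netrin receptor family 14 lay below 0 (median -0.07), with 4 not overlapping on the lower side (22.2%) and 1 on the higher.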

How the data were processed

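Poly(A) RNA libraries were made with a kit that does not mark strand, per the labels' protocols. The builds GRCm38 and mm10 and the tools HISAT2 2.0.1, HTSeq 0.6.1 and cutadapt 1.9.1 are listed in the submitters' processing notes; the strand setting and annotation release were not given in the sources used. The authors deposited 1 table of whole-number read counts per gene, not normalized, with exonic sizes as another column; its 8 columns of FPKM were not used, and FPKM here were computed from the counts.

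Columns were assigned to genotypes by their names, which match no sample number of the labels. Genes passing edgeR's default filter (minimum count 10) were tested with edgeR 4.0.16 (R 4.3.3, limma 3.58.1): TMM scaling, 1 mean per genotype, all 8 libraries, quasi-likelihood test, two-sided, Benjamini-Hochberg adjusted p below 0.05 over all tested genes. SE is the log2 change divided by the square root of F. The test was checked on simulated counts. Alternatives were DESeq2 1.42.0, other scalings, filters, covariates, fewer samples, and leaving out each library.

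Named genes were all called genes (if at most 40), Prtg, fixed regulators, and in each of 60 lists the called members and the 1 with the smallest p. Some of these genes are not reported here, though the counts and list medians include them. The 60 lists and the genes were chosen with earlier results of these data known. Lists are described by counts and medians and were not tested.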

Additional observations from a re-analysis of the deposited data

How the results depend on the processing

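Against 10 higher and 21 lower genes, no filter on low counts gave 256 higher and 181 lower genes, DESeq2 67 and 91, and only the KO and Het libraries 2 and 8; the column set as a term gave 13 and 34, the Y-linked level as a covariate 13 and 20. For Het against WT, against 0 genes, no filter gave 11 and DESeq2 1. Leaving out 1 library gave 0 to 16 higher and 2 to 33 lower genes, 0 to 1 genes between Het and WT, and 1355 to 2512 genes with no overlap on the higher side and 1437 to 2444 on the lower, against 1343 and 1383; part of the last rise follows from fewer libraries. Prtg ran from -0.072 to 0.044 when 1 library was left out, above 0 without Het 2-5 (0.044) and KO 2-3 (0.019). The cause of these differences was not tested. All 31 genes were among the calls of DESeq2, of both other scalings and of no filter. A minimum of 1 CPM in 3 libraries lost Hoxd13 and Hoxa11os, and the column set term lost Hoxa11os. The Y-linked covariate lost 7 genes, among them Hoxd10, Hoxd13, Hoxa11os, Dusp9, Aldh1b1 and Cacna2d2. Of the named genes' other values under alternatives, 185 lost and 49 gained the threshold with the same sign, and 1010 kept their side. No paired analysis was possible because the columns carry none of the labels' replicate numbers; the column set above, the first number of the column names, is another number, which the labels do not explain. With 3 libraries per group, small changes of weakly expressed genes are not detectable, so genes not called are not shown to be equal.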

Other observations

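Without KO 1-3, 22 genes were called that were not called with all libraries, 7 higher and 15 lower, and they were chosen for description after their values were seen. Some joined groups already described, as Hoxc10, Wt1, Pitx1, Skil and Notch4. Others had KO 1-3 on the side of Het. Cenpv, a centromere-associated protein, was at 15.03, 13.4 and 15.01 CPM in Het, at 13.3 CPM in KO 1-3, and at 26.9 and 27.8 CPM in KO 2-2 and KO 2-3 (0.91 ± 0.10 without KO 1-3, edgeR adjusted p = 0.0033). Its WT libraries, at 21.3 and 21.99 CPM, lay between. Rac1, a small GTPase of the actin cytoskeleton, was at 281, 265 and 283 CPM in Het, at 279 CPM in KO 1-3 and at 357 and 372 CPM in the other KO libraries (0.40 ± 0.05, edgeR adjusted p = 0.0112). WT stood at 348 and 366 CPM, near the latter pair. Aph1b, a subunit of gamma-secretase, was at 4.46, 7.97 and 5.35 CPM in Het, at 4.48 CPM in KO 1-3 and at 1.29 and 1.61 CPM in the others (-2.03 ± 0.28, edgeR adjusted p = 0.0112), with WT at 9.28 and 10.1 CPM.

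Igfbp2, which binds insulin-like growth factors, was at 125, 129 and 124 CPM in Het, at 172 CPM in KO 1-3 and at 97.0 and 107 CPM in the other KO libraries (-0.30 ± 0.05 without KO 1-3, edgeR adjusted p = 0.0477; -0.01 with all libraries, edgeR adjusted p = 0.986). Lpl, lipoprotein lipase, had every KO library below Het, at 40.3, 36.0 and 32.0 CPM in Het and at 15.7, 21.4 and 23.9 CPM in KO (-0.67 ± 0.12 without KO 1-3, edgeR adjusted p = 0.0398; -0.83 and 0.0607 with all libraries).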
